A study of Mus musculus with 12 samples.

Results

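Cadherins and claudins are the adhesion proteins of adherens and tight junctions, and their transcripts were measured by RNA sequencing in 12 subcutaneous MC38 tumors. Members were chosen by gene symbol alone: every row named Cdh or Cldn followed by a number, which gave 44 of the 18211 genes in the table, 23 cadherins and 21 claudins. MC38 is a mouse colorectal adenocarcinoma line, grown here in female C57BL/6 mice that were 5 weeks old when bought. Groups were formed on day 7 after implantation, with 3 tumors in each of 4 groups. The CK group received vehicle. The PB-020 group received this IGF-1R inhibitor by gavage at 50 mg/kg per day. The anti-PD-1 group received 200 μg of the antibody RMP1-14 per mouse on days 9, 12, 15 and 18. A combination group was given both. All 4 groups share the same cell line, host strain and site, so the data describe a single tumor model with host cells in the bulk RNA. Tumor size was not shared. By the volumes given in the paper, tumors were on average smaller with anti-PD-1 than in CK and smallest in the combination. Treatment and tumor size therefore cannot be told apart here.

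Classical cadherins bind their own kind on the neighbouring cell and hold on to the actin skeleton through catenins. E-cadherin (Cdh1) marks epithelia, N-cadherin (Cdh2) marks mesenchymal and neural cells, and VE-cadherin (Cdh5) marks endothelium. Claudins are small proteins that span the membrane and seal, or form pores in, tight junctions; claudin-5 does so in endothelium and claudin-1 in the epidermis.

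The deposited expected counts summed to between 16545394 and 17217035 per tumor, with a median of 16927043. Markers of other tissues differed between single tumors. Summed FPKM of 10 skeletal muscle genes was 580.54 in anti-PD-1 tumor 1 and between 11.77 and 64.35 in the other 11 tumors. Summed FPKM of 6 adipocyte genes was 108.09 in CK tumor 3 and between 3.48 and 12.25 elsewhere. Simple epithelial markers were near 0 in these tumors: Krt8 stayed between 0 and 0.14 FPKM, Krt18 between 0 and 0.14 and Epcam between 0.06 and 0.54. Krt14, a keratin of basal epithelium, had a mean of 92.9 FPKM across CK tumors and of 183 across combination tumors. In bulk tumors, fewer cells of a type and less RNA per cell cannot be told apart.

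Of the 44 genes, 20 reached a summed expected count of 30 over the 12 tumors, 12 cadherins and 8 claudins. The 14 that passed the filter on low counts, 10 cadherins and 4 claudins, entered the test. T-cadherin (Cdh13) and Cldn12 dominated their families. Cdh13 made up 55.5% to 69.2% of cadherin TPM (transcript abundance scaled to the same total in every tumor), and Cldn12 made up 66.6% to 84.1% of claudin TPM. Summed cadherin TPM was 187.22, 204.07 and 193.4 in the CK tumors, 155.41, 173.68 and 156.13 in the PB-020 tumors, 171.98, 152.18 and 144.1 in the anti-PD-1 tumors and 133.07, 123.61 and 142.5 in the combination tumors. All 3 combination tumors were below the other 9. Summed claudin TPM ran from 56.33 to 74.37, with CK tumor 2 highest and anti-PD-1 tumor 3 lowest.

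**Figure D1:**
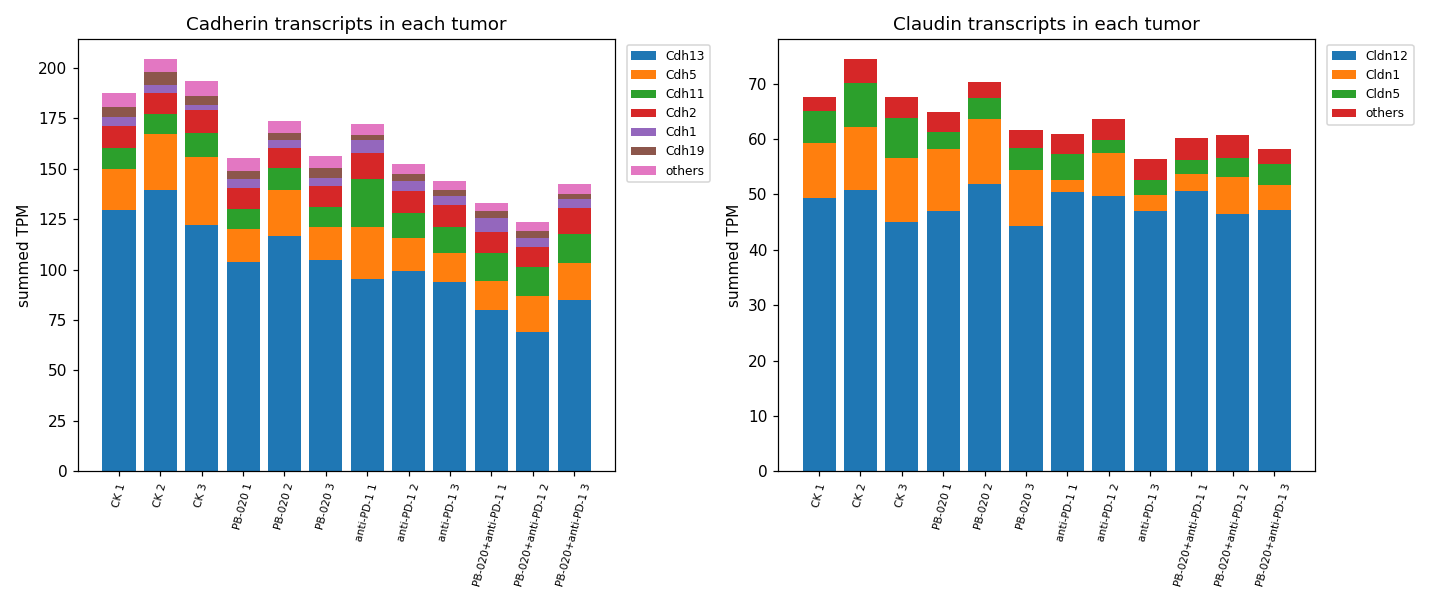
Summed TPM of the cadherins (left) and claudins (right) in each of the 12 tumors, with the most abundant members as separate parts of the bar. Cdh13 and Cldn12 are the largest parts in every tumor, and the cadherin bars of the combination tumors, at 123.61 to 142.5 TPM, are the shortest.

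By mean FPKM (fragments scaled to transcript length and library size) over the 12 tumors the order was Cdh13 at 58.2, Cldn12 at 27.3, Cdh5 at 11.5, Cdh11 at 7.24, Cdh2 at 6.17, Cldn1 at 4.38, Cdh1 at 2.61, Cldn5 at 2.41, Cdh19 at 2.14 and Cdh24 at 1.21. Cdh26, Cldn15, Cdh23 and Cdh3 averaged 0.96, 0.458, 0.406 and 0.249 FPKM. Cdh1, Cldn5 and Cdh19 overlapped one another across the tumors, as did Cdh11 and Cdh2. Among claudins known from gut epithelium, Cldn2, Cldn4 and Cldn7 had between 3 and 12 summed counts, and Cldn15 had 158. Cldn3 was not among the 21 claudins measured.

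**Figure D2:**
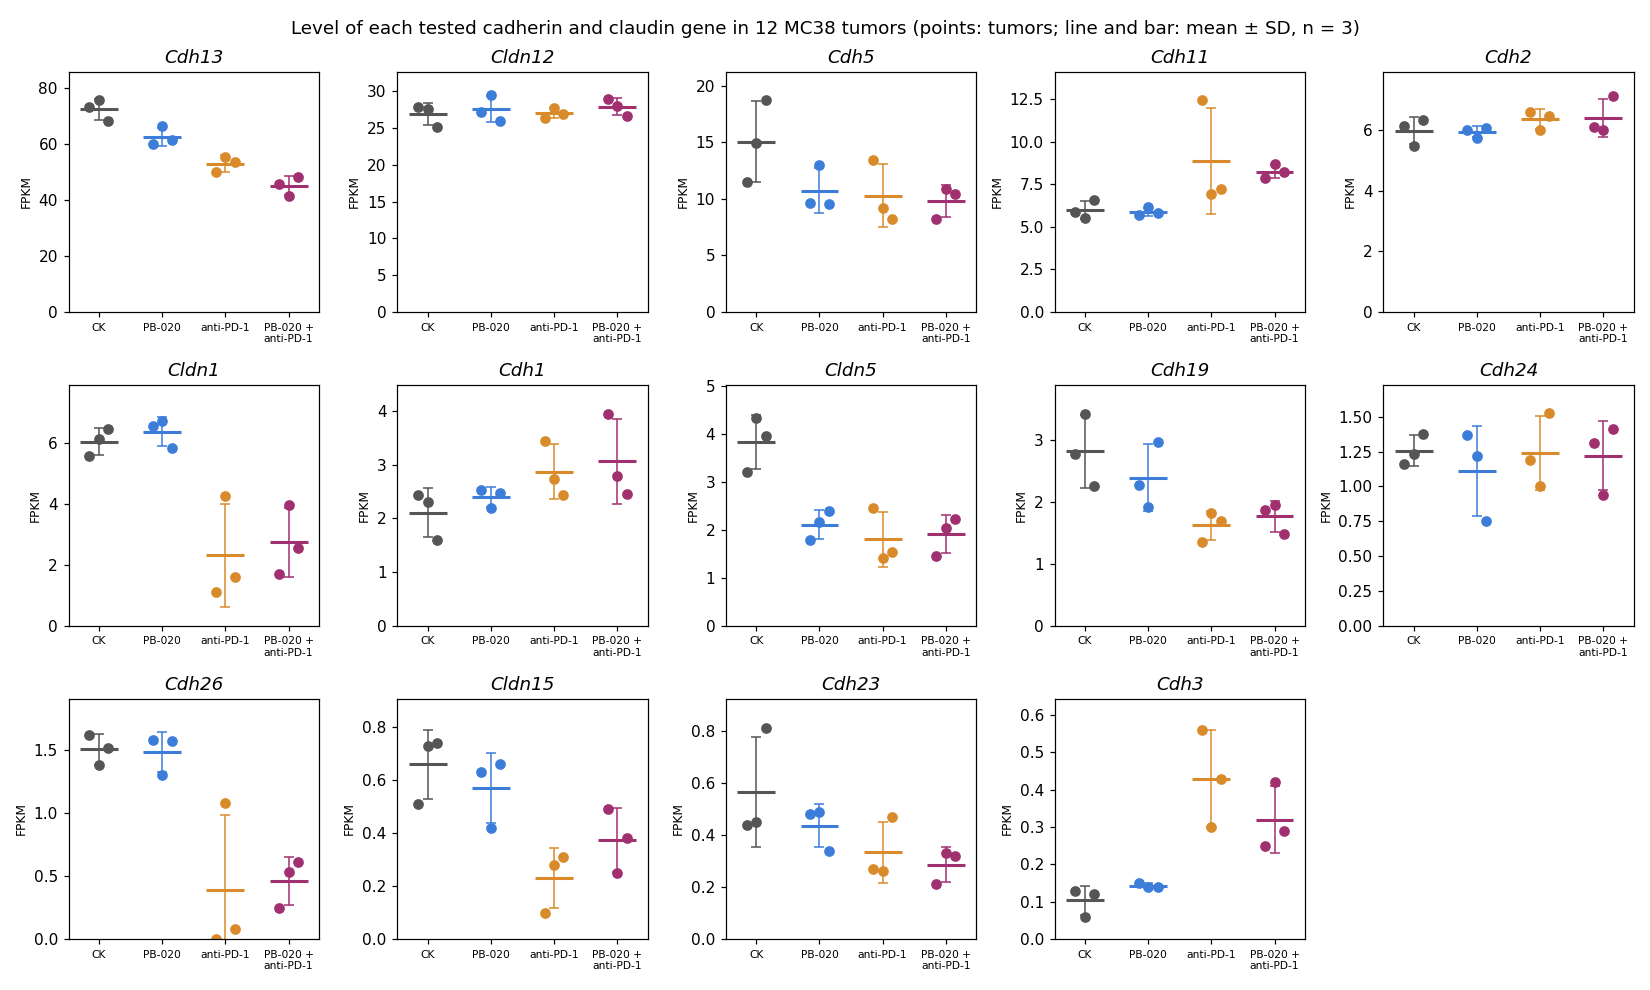
FPKM of the 14 tested genes in each tumor, with the mean and SD of 3 tumors per group and a y axis from 0 in each panel (SD bars end at 0). Cdh13 steps down from 72.3 in CK to 45.1 in the combination group, Cldn1 and Cdh26 are low in the tumors given anti-PD-1, and Cldn12 lies between 25.11 and 29.44 in all 12.

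The question each comparison asked was which junction genes differed after a single treatment or both. With the edgeR quasi-likelihood test and an adjusted p under 0.05, 5 of 14 members changed in the anti-PD-1 group against CK, 1 higher (Cdh3) and 4 lower (Cdh13, Cldn5, Cdh19 and Cdh23), beside 8.26% of all 13563 genes tested (4.18% higher, 4.08% lower). The combination group against CK gave 5 of 14, again Cdh3 higher and Cdh13, Cldn5, Cdh19 and Cdh23 lower, beside 17.9% of all genes (8.35% higher, 9.6% lower). These comparisons share the CK tumors. The median log2 change of the 14 members was -0.48 for anti-PD-1 and -0.63 for the combination, beside 0.00047 and -0.0026 over all genes. Cdh3 entered the test through the tumors in which it was high, and Cldn15 through those without anti-PD-1, in which it was higher. The inclusion of both genes was thus bound to their changes. Without the filter the number called was also 5 in each of these 2 comparisons, of all 44 genes.

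PB-020 alone changed 0 of 14 members, beside 0% of all genes, with edgeR and also 0 with DESeq2. At an unadjusted p under 0.05 there were 2 members, Cdh13 and Cldn5, beside 5.46% of all genes. The combination group differed from PB-020 in 1 member, Cdh13, lower, beside 3.35% of all genes (1.25% higher, 2.11% lower). It differed from anti-PD-1 in 0 members with edgeR and with DESeq2, beside 0%, and in 1 member, Cdh13, at an unadjusted p under 0.05, beside 7.26%. The interaction, which asks whether the 2 single treatments add up on the log2 scale, called 0 members with either tool, beside 0% of genes, and 1, Cldn5, at an unadjusted p under 0.05, beside 2.29%. Setting the 6 tumors given anti-PD-1 against the 6 not given it, 8 of 14 changed, 2 higher (Cdh3 and Cdh11) and 6 lower (Cdh13, Cldn5, Cdh19, Cdh23, Cldn1 and Cldn15), beside 24.2% of all genes (11.8% higher, 12.3% lower). Cdh3 and Cldn15, whose inclusion in the test was bound to their changes, are among the 8. Without the filter 9 were called, of all 44 genes.

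By the rule of a fold over 1.5 with an unadjusted p under 0.05, 1 member passed for PB-020 against CK beside 0.56% of all genes, 6 for anti-PD-1 beside 7.18%, 7 for the combination beside 8.52%, 0 for the combination against anti-PD-1 beside 0.804%, 2 against PB-020 beside 5.93%, 1 for the interaction beside 0.723% and 7 for 6 against 6 tumors beside 7.73%. At an unadjusted p alone there were 10 members for anti-PD-1 against CK beside 26.6%, 9 for the combination against CK beside 33.9%, 5 for the combination against PB-020 beside 22.4% and 10 for 6 against 6 beside 37.9%. On counts scaled to library size, the groups did not overlap for 4 members in PB-020 against CK beside 14.3% of all genes, 10 in anti-PD-1 against CK beside 29.1%, 11 in the combination against CK beside 40.7%, 1 in the combination against anti-PD-1 beside 10%, 6 in the combination against PB-020 beside 31.1% and 6 for 6 against 6 beside 8.6%. Those last 6 were Cdh13, Cdh11, Cldn1, Cdh26, Cdh23 and Cdh3.

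Single tumors moved these counts. For anti-PD-1 against CK the 5 became 1 without CK tumor 2, 3 without CK tumor 3 or anti-PD-1 tumor 1, 2 without anti-PD-1 tumor 3 and 8 without anti-PD-1 tumor 2. Fitted on the CK and anti-PD-1 tumors alone, it was 0, with 3 of all genes called. For the combination against CK the 5 became 1 without CK tumor 2, 2 without combination tumor 1 or 2, and 8 without anti-PD-1 tumor 1 or 2. For the combination against PB-020 the 1 became 0 without PB-020 tumor 1 or 3 or combination tumor 1 or 2, 2 without anti-PD-1 tumor 1 and 3 without anti-PD-1 tumor 2. The comparison of 6 tumors with 6 gave between 6 and 9.

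**Figure D3:**
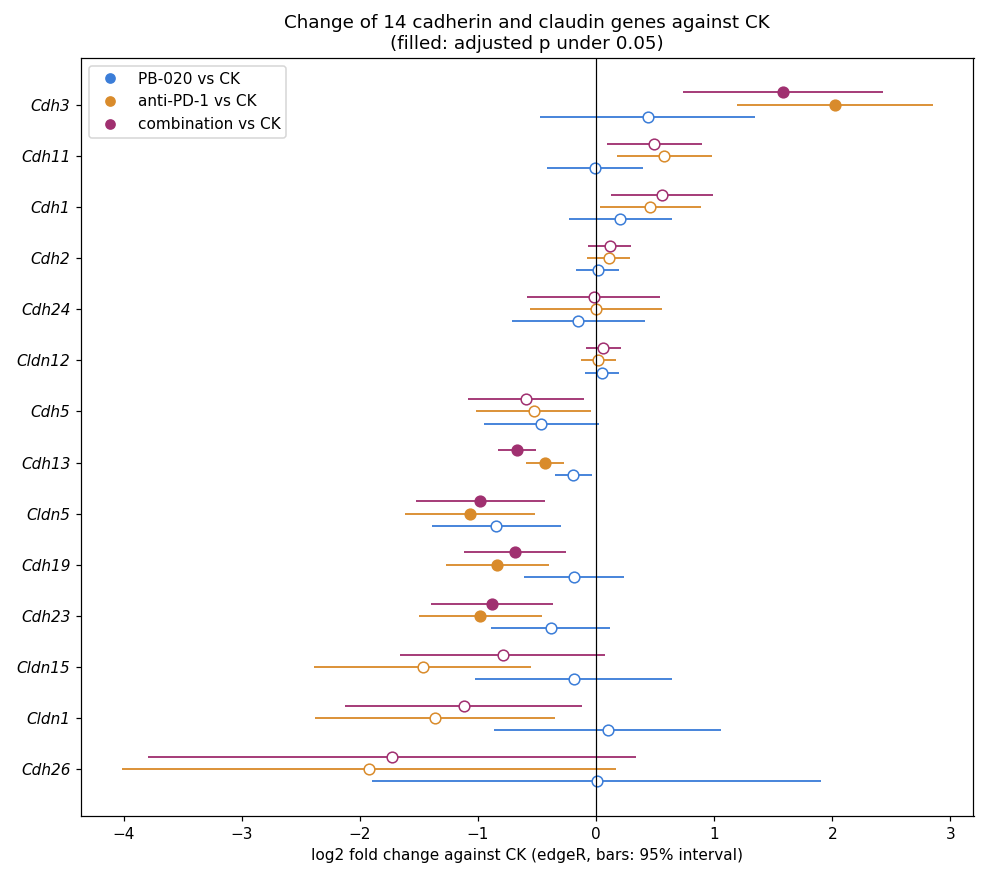
Log2 fold change of each tested gene against CK with its 95% interval (edgeR), for PB-020, anti-PD-1 and the combination; filled points have an adjusted p under 0.05. Cdh3 lies to the right at 1.58 and 2.02 in the groups given anti-PD-1, and the filled points to the left are Cdh13, Cldn5, Cdh19 and Cdh23.

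T-cadherin (Cdh13, chr8:118140017-119324929, GRCm38.p6) is an unusual cadherin, anchored to the membrane by a lipid and without the tail that binds catenins. It is also a receptor for adiponectin. Its FPKM was 73.01, 75.76 and 68.1 in CK, 60.11, 66.23 and 61.21 with PB-020, 49.82, 55.43 and 53.7 with anti-PD-1, and 45.73, 41.54 and 48.14 in the combination. The 4 groups did not overlap and stood in that order. Against CK it fell by 37.2% in the combination, a log2 change of -0.67 (SE 0.0741, edgeR adjusted p = 0.000954), which stayed past the threshold under all 21 alternatives run for it.

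With anti-PD-1 alone Cdh13 fell by 25.9% against CK (log2 change -0.43, SE 0.0738, adjusted p = 0.00838; adjusted p = 0.0561 when fitted on these 2 groups alone). PB-020 alone gave -0.19 with an interval from -0.35 to -0.034 and an adjusted p of 0.874. The combination against PB-020 gave -0.48 (SE 0.0741, adjusted p = 0.0184), and against anti-PD-1 -0.24 (adjusted p = 0.663). The adjusted p against PB-020 was between 0.0702 and 0.1 without PB-020 tumor 1 or 3 or combination tumor 1 or 2. The cell type in which Cdh13 fell was not measured. Summed fibroblast marker FPKM was also lower in the anti-PD-1 group, at 899.97 to 1666.92, and in the combination group, at 931.72 to 1295.69, than in CK, at 1918.89 to 2552.11. Of the 10 markers, Col3a1, Dcn and Pdgfra were called lower in both comparisons with CK, beside 4.08% of all genes with anti-PD-1 and 9.6% in the combination. The larger number went the other way without passing: 6 of 10 were higher in each, and the median log2 change over all 10 was 0.415 with anti-PD-1 and 0.282 in the combination. Col3a1, which made up most of the sum in CK, had a mean of 1349 FPKM there and of 451.6 in the combination. The part of these markers in the Cdh13 result was not tested.

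Of the 2 endothelial junction genes, Cldn5 fell in both groups given anti-PD-1 and Cdh5 did not pass the test. Claudin-5 (Cldn5, chr16:18776847-18778262) had 3.21, 4.32 and 3.96 FPKM in CK, 1.78, 2.15 and 2.38 with PB-020, 2.46, 1.4 and 1.54 with anti-PD-1 and 1.46, 2.04 and 2.23 in the combination. All 9 treated tumors lay below the 3 CK tumors, and the treated groups overlapped one another. The log2 change against CK was -1.07 with anti-PD-1 (SE 0.256, adjusted p = 0.0249) and -0.98 in the combination (SE 0.255, adjusted p = 0.0197). With PB-020 it was -0.84, with an interval from -1.39 to -0.30 and an adjusted p of 0.874.

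The Cldn5 interaction was 0.93 on the log2 scale (SE 0.364, edgeR adjusted p = 1), with an interval from 0.15 to 1.71, and it failed the correction. The Cldn5 call was lost without CK tumor 2 in both comparisons, at an adjusted p of 0.105 for anti-PD-1 and 0.0836 for the combination. It was also lost without CK tumor 3 (0.0559) or anti-PD-1 tumor 3 (0.0891) for anti-PD-1, when that comparison was fitted on its 2 groups alone (0.0838), and without combination tumor 1 (0.0817) for the combination. Over 6 against 6 tumors Cldn5 changed by -0.60 (adjusted p = 0.0297), which was lost without CK tumor 2 or 3, PB-020 tumor 3, anti-PD-1 tumor 3 or combination tumor 1, at adjusted p between 0.0511 and 0.0742.

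VE-cadherin (Cdh5, chr8:104101613-104144504) had 11.53, 14.93 and 18.73 FPKM in CK, 9.61, 12.99 and 9.56 with PB-020, 13.45, 9.18 and 8.25 with anti-PD-1 and 8.24, 10.83 and 10.39 in the combination. CK tumor 3, the tumor with high adipocyte markers, was highest. Only the combination group did not overlap CK. The log2 changes were -0.47, -0.53 and -0.60 for PB-020, anti-PD-1 and the combination, with adjusted p of 0.874, 0.155 and 0.0869, and none passed. Without CK tumor 1 or anti-PD-1 tumor 1 the adjusted p of the combination was 0.0444 or 0.0464, and with DESeq2 it was 0.0198.

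Endothelial content was set beside both genes with 12 other endothelial markers, among them Pecam1 and Kdr. Their summed FPKM was 71.93, 80.14 and 104.45 in CK, 66.01, 75.53 and 68.04 with PB-020, 95.93, 57.97 and 65.25 with anti-PD-1 and 65.2, 76.43 and 78.35 in the combination, so the groups overlapped. In the combination against CK 0 of the 12 markers were called, 11 were lower and the median log2 change of the 12 was -0.283. All 12 were lower against CK with PB-020 (median -0.329) and with anti-PD-1 (median -0.261), and 0 were called in either. As a share of that sum, Cldn5 was 4.55% ± 0.803 (SD, n = 3) in CK, 3.01% ± 0.426 with PB-020, 2.45% ± 0.106 with anti-PD-1 and 2.59% ± 0.312 in the combination. The Cdh5 share was 17.5% ± 1.35, 15.3% ± 1.69, 14.2% ± 1.61 and 13.4% ± 0.77 in the same order. Every treated tumor had a lower Cldn5 share than every CK tumor. The share depends on the markers summed, of which Plvap, Pecam1 and Emcn were the largest in CK. Mean Erg was 2.69 FPKM in CK and 1.58, 1.37 and 1.72 with PB-020, anti-PD-1 and the combination. Sox17 was 0.593, 0.417, 0.327 and 0.387 in the same order, and Emcn 13.4, 11.3, 12.4 and 13.6. Whether Cldn5 fell more than endothelial content was not tested. These shares were formed after the values had been seen and are given as a description.

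**Figure D4:**
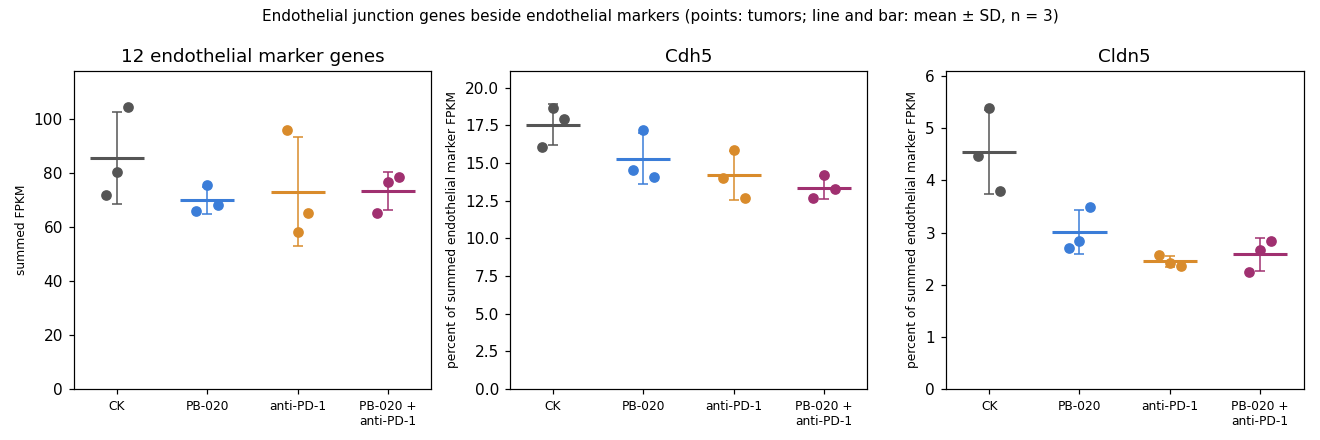
Summed FPKM of 12 endothelial marker genes (left) and Cdh5 and Cldn5 as a percent of that sum (middle and right), per tumor, with mean and SD of 3 tumors. The summed markers overlap between groups, and the Cldn5 share is 3.79% or more in each CK tumor and at most 3.50% in each treated tumor.

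E-cadherin and P-cadherin are neighbours in the genome. Cdh3 (chr8:106510852-106556911) ends 46438 bases before Cdh1 (chr8:106603350-106670247) begins, and 5 of the 10 tested cadherins lie on chromosome 8 between 102632095 and 119324929. P-cadherin (Cdh3), known from basal epithelium, was the member that rose most. Its FPKM was 0.13, 0.06 and 0.12 in CK, 0.15, 0.14 and 0.14 with PB-020, 0.56, 0.3 and 0.43 with anti-PD-1 and 0.25, 0.42 and 0.29 in the combination. The 6 tumors given anti-PD-1 were all above the other 6. Its counts were low, 4 to 10 in the tumors without anti-PD-1 and 16 to 37 in those with it.

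The Cdh3 log2 change against CK was 2.02 with anti-PD-1 (SE 0.387, adjusted p = 0.0111) and 1.58 in the combination (SE 0.393, adjusted p = 0.0159). It lost its call without CK tumor 2, at 1.74 (adjusted p = 0.0628) and 1.31 (adjusted p = 0.0814), without combination tumor 2 (adjusted p = 0.0723) in the combination, with limma on log2(FPKM + 1) in the combination (adjusted p = 0.0534), and for anti-PD-1 when fitted on its 2 groups alone (adjusted p = 0.0617). Over 6 tumors against 6 it was 1.58 (SE 0.271, adjusted p = 0.00186) and passed under all 20 alternatives. PB-020 alone gave 0.43 (adjusted p = 0.932). Of 14 keratinocyte and simple epithelial markers 5 could be tested, and Krt14 alone was called, higher by 0.85 with anti-PD-1 (adjusted p = 0.0182) and 1.04 in the combination (adjusted p = 0.00453). The 5 did not move together: 2 were higher and 3 lower with anti-PD-1 (median log2 change -0.0199), 5 were higher in the combination (median 1.04), and 3 were higher and 2 lower over 6 against 6 tumors (median 0.0512). Their summed FPKM, most of it Krt14, was 87.74 to 125.82 in CK, 117.02 to 148.74 with PB-020, 139.89 to 191.78 with anti-PD-1 and 175.1 to 215.83 in the combination. The part of Krt14 and the other markers in the Cdh3 result was not tested.

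E-cadherin (Cdh1) had 2.43, 2.31 and 1.59 FPKM in CK, 2.53, 2.19 and 2.48 with PB-020, 3.44, 2.74 and 2.44 with anti-PD-1 and 3.96, 2.79 and 2.45 in the combination. The 6 tumors given anti-PD-1 all lay above the highest CK tumor, some only just, and overlapped the PB-020 tumors. The log2 changes against CK were 0.46 with anti-PD-1 (adjusted p = 0.16) and 0.56 in the combination (adjusted p = 0.0686), and 0.41 over 6 tumors against 6 (adjusted p = 0.0517). None passed with edgeR. The combination value had an adjusted p of 0.0499 with DESeq2, 0.0444 without anti-PD-1 tumor 1 and 0.0424 without combination tumor 3. The 6 against 6 value had 0.0367 with DESeq2, 0.0497 with relative log expression scaling, 0.0457 without CK tumor 1 and 0.0344 without combination tumor 3.

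N-cadherin (Cdh2) overlapped between all groups. Its FPKM was 6.12, 5.47 and 6.34 in CK, 6.01, 5.74 and 6.07 with PB-020, 6.6, 6 and 6.47 with anti-PD-1 and 6.08, 5.99 and 7.11 in the combination. The combination differed from CK by 0.12 log2 units with an interval from -0.066 to 0.30. Cdh2 exceeded Cdh1 in all 12 tumors, the ratio of Cdh1 to Cdh2 FPKM running from 0.251 in CK tumor 3 to 0.651 in combination tumor 1.

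Cadherin-11 (Cdh11, chr8:102632095-102785493), a cadherin of mesenchymal cells and osteoblasts, had 5.86, 5.54 and 6.57 FPKM in CK, 5.67, 6.15 and 5.81 with PB-020, 12.46, 6.9 and 7.23 with anti-PD-1 and 7.86, 8.66 and 8.2 in the combination. All 6 tumors given anti-PD-1 exceeded the other 6, and anti-PD-1 tumor 1 stood far above the rest. That tumor was rich in skeletal muscle transcripts. It also had the highest summed FPKM of pericyte and smooth muscle (155.15), macrophage (1383.9) and T-cell (80.87) markers. The part of these markers in the Cdh11 values was not tested. Over 6 against 6 tumors the log2 change was 0.54 (SE 0.13, adjusted p = 0.0132), past the threshold under all 20 alternatives. Against CK it was 0.58 with anti-PD-1 (adjusted p = 0.0732) and 0.49 in the combination (adjusted p = 0.0847). Without anti-PD-1 tumor 1 the combination value was 0.49 with an adjusted p of 0.001, and without anti-PD-1 tumor 2 the adjusted p was 0.0409 for the combination and 0.0157 for anti-PD-1. DESeq2 gave 0.0324 and 0.0175, and the combination and CK tumors alone gave 0.00154.

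Cadherin-19 (Cdh19, chr1:110888002-110977601), known from Schwann cell precursors and melanocytes, had 2.77, 3.42 and 2.25 FPKM in CK, 2.27, 1.91 and 2.97 with PB-020, 1.35, 1.81 and 1.69 with anti-PD-1 and 1.87, 1.94 and 1.48 in the combination. The groups given anti-PD-1 lay below CK without overlap. The log2 change was -0.84 with anti-PD-1 (SE 0.202, adjusted p = 0.0254) and -0.69 in the combination (SE 0.201, adjusted p = 0.0314), and -0.67 over 6 against 6 tumors (adjusted p = 0.0057, past the threshold under all 20 alternatives). The anti-PD-1 call was lost without CK tumor 1 or 2 or anti-PD-1 tumor 1 or 3, at adjusted p between 0.0579 and 0.12, and when fitted on its 2 groups alone (0.0666). The combination call was lost without CK tumor 1 or 2 or any 1 of the combination tumors, at adjusted p between 0.0634 and 0.138. Of 10 Schwann cell and melanocyte markers 4 could be tested. All 4 were higher in the combination than in CK, 0 were called, and Sox10 stayed at or below 0.18 FPKM in every tumor. The part of these cells in the Cdh19 result was not tested.

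Cadherin-23 (Cdh23, chr10:60302748-60696513), the tip-link cadherin of inner ear hair cells, was measured by 23 to 63 counts per tumor. The counts were 47, 51 and 63 in CK, 44, 40 and 37 with PB-020, 24, 24 and 32 with anti-PD-1 and 23, 30 and 32 in the combination, with the 6 tumors given anti-PD-1 below the other 6. The log2 change was -0.98 with anti-PD-1 (SE 0.242, adjusted p = 0.0279) and -0.88 in the combination (SE 0.241, adjusted p = 0.0241). On FPKM the anti-PD-1 group overlapped CK, with 0.47 in anti-PD-1 tumor 3 above the 0.44 and 0.45 of CK tumors 1 and 2, while the combination tumors, at 0.21 to 0.33, stayed below CK. The limma test on log2(FPKM + 1) gave adjusted p of 0.191 for anti-PD-1 and 0.0869 for the combination, and on log2(FPKM + 0.1) 0.191 and 0.0813, so both calls were lost. Over 6 against 6 tumors the Cdh23 change of -0.74 (adjusted p = 0.00881) was lost under the same limma tests, at 0.0803 and 0.0679. The anti-PD-1 call was also lost without CK tumor 2 or 3 or anti-PD-1 tumor 1 or 3 (adjusted p between 0.056 and 0.0882) and on its 2 groups alone (0.0962). The combination call was lost without CK tumor 2 or 3 or combination tumor 1 or 2 (between 0.0585 and 0.0941). Cadherin-24 (Cdh24) had 1.16, 1.23 and 1.38 FPKM in CK, 1.37, 1.22 and 0.75 with PB-020, 1.19, 1 and 1.53 with anti-PD-1 and 1.31, 0.94 and 1.41 in the combination. All groups overlapped, and the combination differed from CK by -0.021 with an interval from -0.58 to 0.54.

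Claudin-1 (Cldn1, chr16:26356645-26371839) had 5.57, 6.13 and 6.47 FPKM in CK, 6.58, 6.75 and 5.83 with PB-020, 1.11, 4.25 and 1.59 with anti-PD-1 and 1.71, 3.96 and 2.55 in the combination. All 6 tumors given anti-PD-1 were below the other 6, and tumor 2 was the highest in both groups. The spread within those groups was wide, so neither comparison with CK passed: the log2 change was -1.36 with anti-PD-1 (SE 0.449, adjusted p = 0.0925) and -1.12 in the combination (SE 0.444, adjusted p = 0.11). Over 6 against 6 tumors it was -1.29 (SE 0.316, adjusted p = 0.0189), past the threshold under all 20 alternatives. Against CK the adjusted p was 0.0382 with DESeq2 and 0.0428 with limma on log2(FPKM + 1) for anti-PD-1, and 0.0427 for the combination fitted with CK alone. PB-020 alone gave 0.099 with an interval from -0.86 to 1.06.

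Cdh26 split the tumors in the same place at lower counts. Its expected counts were 73, 59 and 66 in CK, 70, 57 and 68 with PB-020, 0, 48 and 3 with anti-PD-1 and 9, 22 and 27 in the combination. The tumors given anti-PD-1 were all below the others, and anti-PD-1 tumor 2 again lay nearest to them. The log2 change was -1.92 with anti-PD-1 (SE 0.933, adjusted p = 0.223), -1.73 in the combination (SE 0.921, adjusted p = 0.216) and -1.83 over 6 against 6 tumors (adjusted p = 0.0704). Leaving out anti-PD-1 tumor 2, the nearest to the others, was bound to enlarge the anti-PD-1 changes and lower the spread within that group. Without it the anti-PD-1 change was -5.33 (adjusted p = 0.000536) for Cdh26 and -2.15 (adjusted p = 0.00205) for Cldn1. The combination changes then had adjusted p of 0.00957 and 0.0116, and the 6 against 6 change of Cdh26 was -3.53 (adjusted p = 7.28e-05). With 0 and 3 counts left in the anti-PD-1 group, the size of those Cdh26 changes depends on the prior count. No conclusion on either gene is drawn from this omission. Limma on log2(FPKM + 1) gave Cdh26 adjusted p of 0.0307 for anti-PD-1, 0.0335 for the combination and 0.00448 for 6 against 6, limma on log2(FPKM + 0.1) gave 0.0187 for the last, and the combination and CK tumors alone gave 0.00193.

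**Figure D5:**
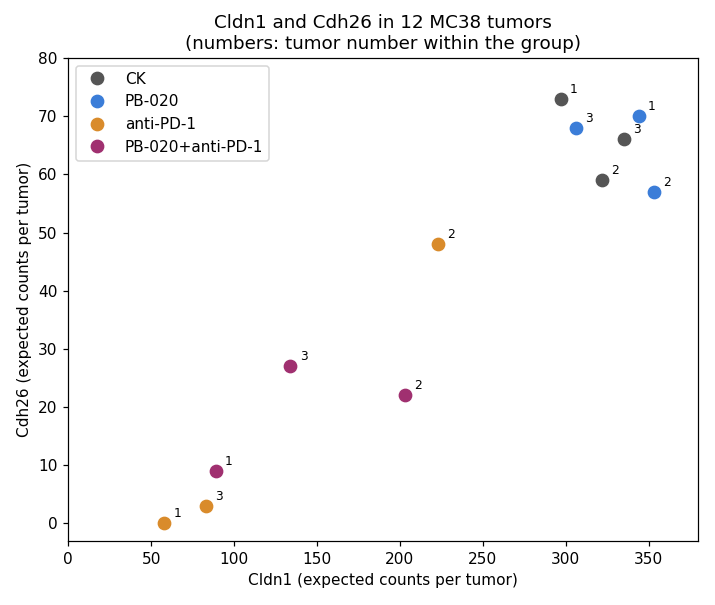
Expected counts of Cldn1 (x) and Cdh26 (y) in each tumor, coloured by group and marked with the tumor's number. The 6 tumors without anti-PD-1 sit together at 297 to 353 Cldn1 counts and 57 to 73 Cdh26 counts, and anti-PD-1 tumor 2, at 223 and 48, lies nearest to them among the tumors given the antibody.

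Claudin-15 (Cldn15, chr5:136967869-136975845), a claudin that forms cation pores in the gut, had 15, 21 and 21 counts in CK, 18, 12 and 19 with PB-020, 3, 8 and 9 with anti-PD-1 and 14, 7 and 11 in the combination. The anti-PD-1 tumors lay below all tumors without the antibody, and combination tumor 1 overlapped them. Over 6 against 6 tumors the log2 change was -1.03 (SE 0.296, adjusted p = 0.0235), which was lost without CK tumor 2, PB-020 tumor 1 or 3, or combination tumor 2, at adjusted p between 0.0575 and 0.0642. Against CK it was -1.47 with anti-PD-1 (adjusted p = 0.0504, and between 0.0305 and 0.0476 with limma or scaling by library size alone) and -0.79 in the combination (adjusted p = 0.184). Claudin-12 (Cldn12, chr5:5505015-5514976), an atypical claudin, had 27.86, 27.62 and 25.11 FPKM in CK, 27.2, 29.44 and 25.98 with PB-020, 26.38, 27.77 and 26.93 with anti-PD-1 and 28.96, 28.05 and 26.68 in the combination. All groups overlapped, and the combination differed from CK by 0.062 with an interval from -0.086 to 0.21.

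RefSeq promoter sequence of build GRCm38.p6 was at hand for 30 of the 44 genes and for 7 of the 14 tested. The 250 bases before the start of Cldn5, Cldn1 and Cldn15, called lower over 6 against 6 tumors, and of Cdh26, which did not pass, are shown 5′ to 3′ on the strand of the gene, to set the promoters of Cldn1 and Cdh26, which split the tumors in the same place, beside those of the other 2 claudins. Capitals mark GC boxes, GGGCGG on either strand, the letters bound by Sp1. They lie at chr16:18776597-18776846 (plus strand) for Cldn5, chr16:26371840-26372089 (minus strand) for Cldn1, chr5:136967619-136967868 (plus strand) for Cldn15 and chr2:178430265-178430514 (plus strand) for Cdh26.
Cldn5: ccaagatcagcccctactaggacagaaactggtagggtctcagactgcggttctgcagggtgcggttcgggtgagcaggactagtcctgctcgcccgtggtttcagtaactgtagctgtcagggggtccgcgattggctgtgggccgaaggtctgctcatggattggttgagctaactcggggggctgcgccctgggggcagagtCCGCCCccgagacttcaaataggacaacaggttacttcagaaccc
Cldn1: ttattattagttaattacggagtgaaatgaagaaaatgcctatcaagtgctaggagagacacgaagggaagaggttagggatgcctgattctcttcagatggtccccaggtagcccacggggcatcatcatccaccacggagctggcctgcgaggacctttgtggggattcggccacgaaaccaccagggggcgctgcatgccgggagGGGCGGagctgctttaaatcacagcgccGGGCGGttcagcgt
Cldn15: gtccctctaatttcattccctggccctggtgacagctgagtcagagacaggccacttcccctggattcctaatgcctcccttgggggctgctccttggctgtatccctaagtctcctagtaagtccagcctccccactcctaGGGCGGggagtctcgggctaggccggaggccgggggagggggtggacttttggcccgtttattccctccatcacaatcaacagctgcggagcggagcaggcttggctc
Cdh26: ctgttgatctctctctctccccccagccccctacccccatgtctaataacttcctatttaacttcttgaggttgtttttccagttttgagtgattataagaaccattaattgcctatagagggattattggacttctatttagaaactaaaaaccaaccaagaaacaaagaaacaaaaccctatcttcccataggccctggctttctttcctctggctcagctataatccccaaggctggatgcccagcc

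The first capital base was 45 bases before the start in Cldn5, 42 and 14 bases before it in Cldn1 and 108 bases before it in Cldn15, and Cdh26 had no match in this window. The letters occur in 35.7% of 32851 mouse promoters of the table, counted over its full windows, and a match is a description of the letters only. The E-box CAGGTG, on either strand the letters read by Snail and ZEB factors, was in 0 of these 4 windows and in 20.2% of all promoters. The other tested genes with promoter sequence were Cdh23, Cdh24 and Cldn12. Cdh23, also called lower over 6 against 6 tumors, had 0 GC boxes in its full window. Cdh24 had 2 and Cldn12 had 1 or 0 by window, and neither gene passed. Among these genes, called and uncalled ones both occurred with and without the letters. Only 7 of the 14 tested genes had sequence, read in windows of unlike length, so no conclusion on the GC box is drawn. Promoters of Cdh13, Cdh5, Cdh11, Cdh2, Cdh1, Cdh19 and Cdh3 were not analysed here.

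Partners of the junctions were read from 6 lists, whose counts in the combination against CK stand beside 17.9% of all genes called (8.35% higher, 9.6% lower). Of 18 tested catenins and adherens junction adaptors, 2 were higher and 2 lower in the combination against CK, a share near that of all genes, with a list median of -0.0166. Plakoglobin (Jup), the catenin shared by adherens junctions and desmosomes, had 24.4 FPKM ± 1.72 (SD, n = 3) in CK, 17.03 ± 0.506 with PB-020, 11.3 ± 2.99 with anti-PD-1 and 9.67 ± 0.774 in the combination, a log2 change of -1.32 (SE 0.143, adjusted p = 0.000954) in the combination and -1.09 (adjusted p = 0.0067) with anti-PD-1. Vinculin (Vcl), which links junctions to actin, was lower by a log2 change of -0.32 (adjusted p = 0.014). Ajuba and Pkp4 were the 2 higher, at 0.26 and 0.25. The main catenins did not pass, with log2 changes of -0.013 for beta-catenin (Ctnnb1) (adjusted p = 0.935), -0.12 for alpha-catenin (Ctnna1, 0.231) and -0.20 for p120-catenin (Ctnnd1, 0.101).

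Of 24 tested tight junction partners of claudins, 0 were called by edgeR in the combination against CK, with a median of -0.0365. ZO-1 (Tjp1) had a log2 change of -0.11 (adjusted p = 0.352) and occludin (Ocln) stayed at or below 0.1 FPKM in every tumor. Over 6 against 6 tumors 2 were higher, Cgn and Lsr, and 1 lower, Pard6a, a smaller share than the 24.2% of all genes called there (11.8% higher, 12.3% lower). Of 6 tested desmosome genes 1 was higher, plakophilin-3 (Pkp3) by 0.62. Of 16 other members of the cadherin superfamily, Celsr1 was higher by 1.58 (adjusted p = 0.0442, at 0.05 to 0.26 FPKM in the tumors given anti-PD-1), and Pcdh7 and Dchs1 were lower by log2 changes of -0.91 (adjusted p = 0.00281) and -0.60 (adjusted p = 0.0453). Pcdh7, a protocadherin, was at 10.5 FPKM ± 1.24 in CK tumors and 5.24 ± 0.66 in combination tumors.

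Of 9 tested transcription factors known to act on the E-cadherin gene, 3 were lower in the combination, beside 9.6% of all genes, and 0 higher: Tcf4 by -0.68 (SE 0.0936, adjusted p = 0.00182), Zeb2 by -0.50 (SE 0.0745, adjusted p = 0.0023) and Zeb1 by -0.23 (adjusted p = 0.0409). Zeb1 and Zeb2 are known as repressors of Cdh1. Snai1 and Twist1 did not pass, with log2 changes of -0.052 and 0.036. Of the 3 genes listed for lymphocyte receptors of E-cadherin, the integrin chain Itgb7 was higher. It was at 44.4 FPKM ± 9.06 in CK tumors and 93.0 ± 7.19 in combination tumors (log2 change 1.08, SE 0.142, adjusted p = 0.00197). Its partner chain Itgae was far lower, at 0.367 FPKM in CK tumors and 0.603 in combination tumors, so the Itgb7 level does not give that of the paired receptor. Itgae and the receptor Klrg1 did not pass, with log2 changes of 0.75 (adjusted p = 0.148) and 0.69 (adjusted p = 0.135), although Klrg1 was higher over 6 against 6 tumors by 0.80 (adjusted p = 0.0215). T-cell markers were higher too, 9 of 11 in the combination against CK, beside 8.35% of all genes. Their summed FPKM was 38.83 to 62.49 in the combination and 14.53 to 20.42 in CK. The part of these markers in the Itgb7 result was not tested.

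Genes with the most similar pattern over the 12 tumors were found by Pearson r of log2 scaled counts, as a description, since the tumors share their group structure. For Cdh13 they were Sorcs2 (r = 0.970), Ptpra (0.968) and Copa (0.962). For Cldn5 they were Akap12 (0.939), Manbal (0.924) and Lrrc32 (0.906), and for Cdh3 they were Serpina3g (0.968), Irf1 (0.966) and Apol10b (0.963). Cdh19 was most like Ufm1, Bin3 and Txndc16, between 0.953 and 0.959, and Cdh23 most like Nckap5l, Cope and Efna4, between 0.919 and 0.948.

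The remaining 30 genes were too low to compare. Cldn20, Cldn10, Cldn22, Cldn18, Cdh17 and Cdh15 had 32 to 90 summed counts and at most 0.93 FPKM in a tumor. M-cadherin (Cdh15), a cadherin of muscle cells, had 8 counts in anti-PD-1 tumor 1 and 0 to 8 in the other tumors, although that tumor was rich in muscle transcripts. The other 24 had 1 to 29 summed counts and at most 0.25 FPKM: Cdh4, Cdh6, Cdh7, Cdh8, Cdh9, Cdh10, Cdh12, Cdh16, Cdh18, Cdh20, Cdh22, Cldn2, Cldn4, Cldn6, Cldn7, Cldn8, Cldn9, Cldn11, Cldn13, Cldn14, Cldn16, Cldn19, Cldn23 and Cldn24.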

How the data were processed

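Tumor RNA was sequenced by the authors on an Illumina HiSeq instrument as paired reads of 150 bases, aligned with Bowtie2 and quantified per gene with RSEM. The labels name GRCm38.p6, HISAT and Bowtie2, without versions, and the annotation is not given in the sources used here. The deposited table holds expected counts, FPKM and TPM per tumor, as made by the authors, and averages by group that were not used. Groups came from the sample labels. Nothing ties the tumors to separate cages or litters, so p-values set group differences against the spread between these tumors only. That spread was estimated over all 4 groups together and drawn in part from other genes.

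Expected counts were rounded (91% were whole), filtered with filterByExpr (minimum count 10, 13563 genes kept), scaled by TMM and fitted over all 12 tumors as 4 group means with the robust edgeR 4.0.16 quasi-likelihood test in R 4.3.3. Benjamini-Hochberg adjustment ran over all 13563 genes for each of 7 comparisons, with a threshold of 0.05. Alternatives used DESeq2 1.42.0, limma 3.58.1 on log2(FPKM + 1) and log2(FPKM + 0.1), other filters and scalings, a replicate block and omission of each tumor. FPKM gives levels between genes, and groups were called overlapping on FPKM unless counts are named. A fold from few counts depends on the prior count of the fit.

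Members with fewer than 30 summed counts were only listed. Values in every tumor were given for members with a mean FPKM of 1 or more, an adjusted p under 0.05 in any comparison, or a place among the 3 highest or lowest changes in the combination or anti-PD-1 arms comparison. Partner genes past the threshold in the combination with the 3 smallest p in each direction were named; the catenins, Tjp1, Ocln, Snai1, Twist1, Itgae, Klrg1, Cgn, Lsr, Pard6a, Krt14, Sox10, Col3a1, Dcn and Pdgfra were named after their values were seen. The members and lists were chosen with earlier results of these data known. Marker lists for pericytes, cytotoxic lymphocytes, macrophages and dendritic cells gave 1 and 3, 5 and 0, 1 and 0, and 1 and 0 genes higher and lower in the combination against CK, of 10 in each. Erythroid markers gave 5 lower of 5, fibroblast markers 3 lower of 10, and skeletal muscle (10) and adipocyte markers (3) gave 0. These counts stand beside 8.35% of all genes higher and 9.6% lower, so a count of 1 in 10 is near the share of all genes.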

Additional observations from a re-analysis of the deposited data

How the results depend on the processing

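The values of called members never changed sign: of 391 alternative values 339 kept their side of the threshold and 52 fell short of it. Numbers of members called moved as follows. For anti-PD-1 against CK, 5 became 0 on the 2 groups alone and 1 to 8 with 1 tumor left out. For the combination against CK, 5 became 8 with DESeq2 (2789 genes called in all) and 8 on the 2 groups alone, and 1 to 8 with 1 tumor left out. For the combination against PB-020, 1 became 4 on the 2 groups alone (1535 genes in all, beside 455), 2 by a fold over 1.5 with an unadjusted p under 0.05, and 0 to 3 with 1 tumor left out. By that same fold rule PB-020 against CK and the interaction each went from 0 to 1, Cldn5 in both. The cause of these moves was not tested, except that fewer tumors were fitted where tumors were left out. With 1 tumor left out, the 6 against 6 comparison gave 6 to 9. Over all genes, 1120 were called for anti-PD-1 against CK (3 on the 2 groups alone, 137 to 1905 with 1 tumor left out), 2434 for the combination against CK (864 to 3344), 455 for the combination against PB-020 (0 to 1269, and 1109 with DESeq2) and 3279 for 6 against 6 tumors (2086 to 3690). By the fold rule these were 974, 1155, 804 and 1048.

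Among members that were not called, 30 alternative values for 10 of the changes shown turned sign, none past the threshold. For PB-020 against CK, Cdh26 (0.0047) was -0.014 and -0.023 with limma (pseudocounts 1 and 0.1) and -0.019 with library size alone, and Cdh2 (0.012) was -0.0058, -0.0064 and -0.012 under the same. With 1 tumor left out the ranges for PB-020 against CK were -0.069 to 0.088 for Cdh26, -0.048 to 0.042 for Cdh2, -0.064 to 0.049 for Cdh11, -0.34 to 0.066 for Cdh24 and -0.0063 to 0.084 for Cldn12. For anti-PD-1 against CK they were -0.20 to 0.12 for Cdh24 and -0.034 to 0.050 for Cldn12, for the combination -0.13 to 0.13 for Cdh24, and over 6 against 6 tumors -0.046 to 0.15 for Cdh24 and -0.0059 to 0.040 for Cldn12. Another 62 sign changes lay in comparisons whose values are not given above, of at most 0.40 log2 units.

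The replicate block, which takes the shared tumor number as a term, gave 6 members called for anti-PD-1 against CK (870 of all genes), 5 for the combination against CK (2010), 8 over 6 against 6 tumors (2711) and 1 for the combination against PB-020 (320). It gave 0 members and 0 genes for the combination against anti-PD-1, PB-020 against CK and the interaction. Cdh19 in the combination (adjusted p = 0.0532) and Cldn5 over 6 against 6 (0.0526) lost their call under it, and Cldn1 with anti-PD-1 (0.0455) and Cdh1 in the combination (0.0327) and over 6 against 6 (0.0246) gained one. Deviations of tumors with the same number correlated at a median r of -0.037, at most 0.289 and over 0.1 in 2 of 18 pairs. With different numbers the median was 0.0385, the highest 0.355, and 9 of 36 pairs were over 0.1. Tumors with the same number were thus no more alike by this description, which cannot exclude that some were paired. Scaling by library size or relative log expression left the median of all genes within 0.03 of 0. Counts under 100 in every tumor, in Cdh3, Cdh23, Cdh24, Cdh26, Cldn5 and Cldn15, limit what changes of those genes could be seen. Cldn1 and Cdh19 also fell under 100 in some tumors given anti-PD-1, to 58 and 88 at the lowest.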
